A study of Mus musculus with 20 samples.

Results

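The miRNAs miR-199 and miR-214 were followed along the crypt-villus axis of the mouse ileum with 5 of the 655 probes of the array. Members were all probes annotated to mmu-miR-199a or mmu-miR-199b, whichever arm of the hairpin they measure, and the probe of mmu-miR-214. The rule reads the annotation and uses no measured value. The probes were mmu-miR-199b*, mmu-miR-199a-5p, a joint probe for mmu-miR-199a-3p and mmu-miR-199b, a probe named mmu-miR-199a-3p:9.1, and mmu-miR-214. All 5 gave signal above background: 3 of them were detected on all 20 arrays, and miR-199b* and miR-214 on 18 arrays each.

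All fractions came from wild type C57BL/6J male mice, 4 months old, and 4 mice are named in the description of the series. The ileal epithelium was released stepwise in a chelating buffer, V0 being the first supernatant and V1, V2, V3 and C1 the later ones, so that V0 stands for the villus tip and C1 for the crypt. Each fraction was hybridised on 4 Illumina bead arrays. The replicate numbers used here only name an array, since the labels do not tell which arrays share a mouse, and the p-values therefore measure the spread between arrays.

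Each fraction is a mixture of cells released together, with no sort, and in such bulk RNA fewer cells of a type and less RNA per cell cannot be told apart. Between 258 and 481 probes were detected per array (detection p of at most 0.01). By fraction, the median number grew from 347 (C1) over 388.5 (V3), 419.5 (V2) and 439.5 (V1) to 447 (V0). The arrays were spread over 4 slides. Slide 2 held arrays of all 5 fractions, slide 1 only V2, V1 and V0, slide 3 only V3 and C1, and slide 4 a C1 array alone.

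A miRNA is a short RNA that is cut from a hairpin and guides the silencing of messenger RNAs that pair with its seed, the bases 2 to 8. Either arm of a hairpin, called 5p and 3p, can give a mature miRNA, and in the older names used on the array the asterisk marks the less abundant arm. Mouse miR-199 is made from 3 genes, each lying within a dynamin gene and opposite to its strand. Mir199a-2 shares the long non-coding transcript Dnm3os with Mir214. The miR-199 and miR-214 families are best known from mesenchymal cells, fibroblasts and smooth muscle, for their part in skeletal development and in fibrosis.

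The sequences are shown because the joint probe cannot separate its targets: the 3p miRNAs of miR-199a and miR-199b are identical. RefSeq names gave a mature sequence for 3 of the 5 probes. Capitals mark the seed in the sequences below, and all positions are those of RefSeq on GRCm38.p6, since the files state no genome build.
mmu-miR-199a-5p: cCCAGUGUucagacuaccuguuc
mmu-miR-199a-3p: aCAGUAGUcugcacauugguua
mmu-miR-199b-3p: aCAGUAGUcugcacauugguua
mmu-miR-214-3p: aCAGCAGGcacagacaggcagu
mmu-miR-214-5p: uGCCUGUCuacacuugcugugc

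The mature miR-199a-5p lies at chr1:162217844-162217866 on the plus strand within Mir199a-2 and at chr9:21496537-21496559 on the minus strand within Mir199a-1. The mature miR-199a-3p lies at chr1:162217883-162217904 and at chr9:21496498-21496519 within the same hairpins, and miR-199b-3p at chr2:32318524-32318545 on the plus strand within Mir199b. The hairpins of Mir199a-2 and Mir214 both lie within the non-coding gene Dnm3os, itself within Dnm3, with 5444 bases between them. Mir199b lies within Dnm1 and Mir199a-1 within Dnm2. The seed CAGUAGU was carried by miR-199a-3p and miR-199b-3p alone among the mature miRNAs of the RefSeq table. CCAGUGU was listed there for miR-199a-5p alone. The table held no sequence for miR-199b-5p, the arm of the probe miR-199b*, so whether that arm shares CCAGUGU was not read. The seed CAGCAGG of miR-214-3p was shared with miR-761, and GCCUGUC of miR-214-5p with no other miRNA of the table. The array annotation places miR-199b* on chromosome 2, miR-199a-5p on chromosomes 1 and 9, the joint probe on chromosomes 1, 9 and 2, and miR-214 on chromosome 1. The probe miR-199a-3p:9.1 has no chromosome there, and the sources used here do not explain its suffix.

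Along the axis the members did not share a pattern. miR-199b* was high on all 4 villus tip arrays and low on nearly all others. The mean signals of the 3p probes were highest in V0 and C1 and lower in between, a C1 excess that shrank once the number of detected probes was in the fit. miR-199a-5p and miR-214 varied so much within fractions that no order of the fractions stood out from the spread. No member passed the threshold of an adjusted p of at most 0.05 with a 2-fold difference in any comparison of fractions.

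**Figure D1:**
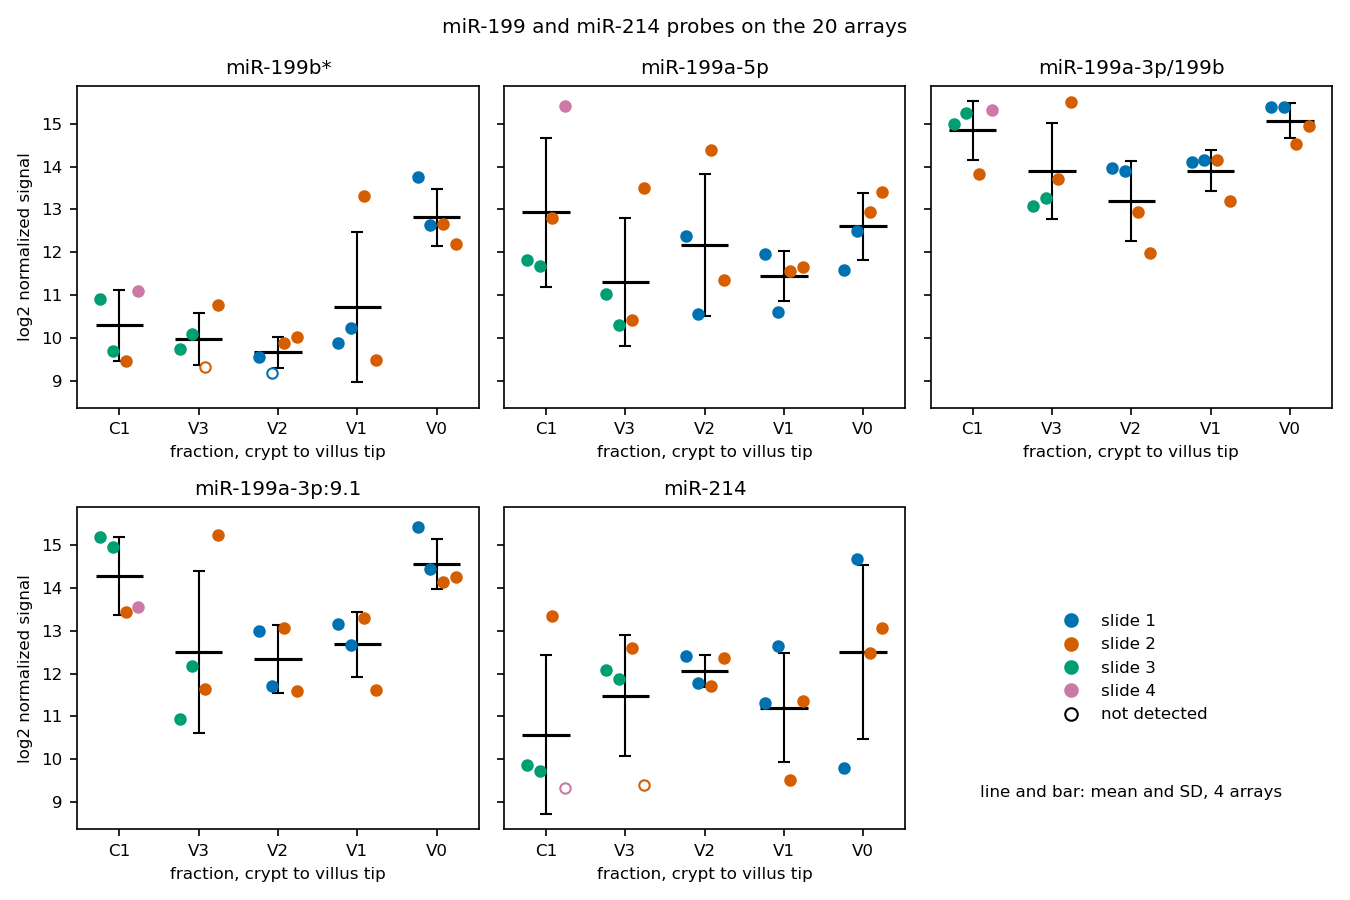
Log2 normalized signal (y axis) of the 5 probes in the fractions C1, V3, V2, V1 and V0 (x axis, crypt to villus tip). Each point is an array, coloured by slide, open where the probe was not detected, and the line and bar give the mean and SD of 4 arrays. miR-199b* lies between 12.19 and 13.76 in V0, above all arrays of C1, V3 and V2, and the 3p probes are high in both C1 and V0.

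miR-199b*, the 5p strand of the hairpin on chromosome 2 and named miR-199b-5p today, had a log2 normalized signal of 13.76, 12.63, 12.66 and 12.19 on the V0 arrays. On the C1 arrays it was 10.91, 9.69, 9.46 and 11.09. In V3 it was 9.74, 10.08, 9.33 and 10.76, and in V2 9.54, 9.19, 9.88 and 10.02, with 1 array of each fraction not detected. All V0 arrays were thus above all arrays of C1, V3 and V2. V1 held 3 low arrays at 9.88, 10.23 and 9.49 and 1 array, replicate 3, at 13.31, which was above 3 of the V0 arrays. This strand belongs to the miRNAs that the study selected on these same arrays, so its direction here is not independent evidence. The study also measured the strand by quantitative PCR on the fractions and reported levels that rose toward the villus.

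The order of the fraction means of miR-199b* was V0, V1, C1, V3 and V2, at 12.81 ± 0.67, 10.73 ± 1.75, 10.29 ± 0.83, 9.98 ± 0.61 and 9.66 ± 0.37 (log2 signal, SD, n = 4). The neighbours V1 and C1, C1 and V3, and V3 and V2 differed by less than their SDs. V0 was higher than C1 by 2.52 on the log2 scale (SE 0.68, 95% interval 1.11 to 3.94, a 5.75-fold higher signal), with an adjusted p of 0.0714 in limma, the sixth smallest p of 321 probes tested. The two-sided exact permutation test of the same difference gave p = 0.0286, the smallest that 4 arrays against 4 allow. V0 was higher than V2 by 3.16 (SE 0.68, adjusted p = 0.063), the smallest p of 331 probes, and higher than V3 by 2.83 (SE 0.68, adjusted p = 0.0863). In V2 and V3 the probe was detected on 3 of 4 arrays, so it entered both comparisons through V0 alone. With no detection filter, the limma difference of V0 from V2 had an adjusted p of 0.107. The difference from V1 was 2.08 (SE 0.68, adjusted p = 0.518).

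The size of the V0 excess of miR-199b* was above 2-fold under all alternatives tried for V0 against C1, from 2.21 to 3.94 on the log2 scale, but its side of the threshold was not stable. Without replicate 3 of V1, the high array, the adjusted p of V0 against C1 became 0.00898, with the difference itself still 2.52. The differences from V1, V2 and V3 then had adjusted p-values of 0.00856, 0.00148 and 0.00508, and the difference from V1 was 2.95. On the signals before normalization V0 exceeded C1 by 3.94 (adjusted p = 0.00195). Within slide 2, V0 exceeded C1 by 2.97, with 2 arrays against 1, and with slide as a fixed block the difference was 3.16 (adjusted p = 0.121). V0 exceeded V2 by 3.83 within slide 1 and by 2.48 within slide 2, exceeded V3 by 2.38 within slide 2, and exceeded V1 by 3.14 and 1.03 within slides 1 and 2.

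Before quantile normalization, the C1 arrays of miR-199b* stood at 9.47, 9.12, 9.49 and 8.69, and the V0 arrays at 13.45, 13.12, 13.32 and 12.63. On C1 replicates 2 and 3 the probe was not detected before normalization, so the C1 values on this scale lie near the background. No V0 array overlapped with a C1 array on this scale either. The C1 arrays were also dimmer in general, with median signals of 319 to 841 against 622 to 1752 in V0 before normalization, and the median difference of all 321 probes tested between V0 and C1 was 0.95 before and -0.04 after it.

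**Figure D2:**
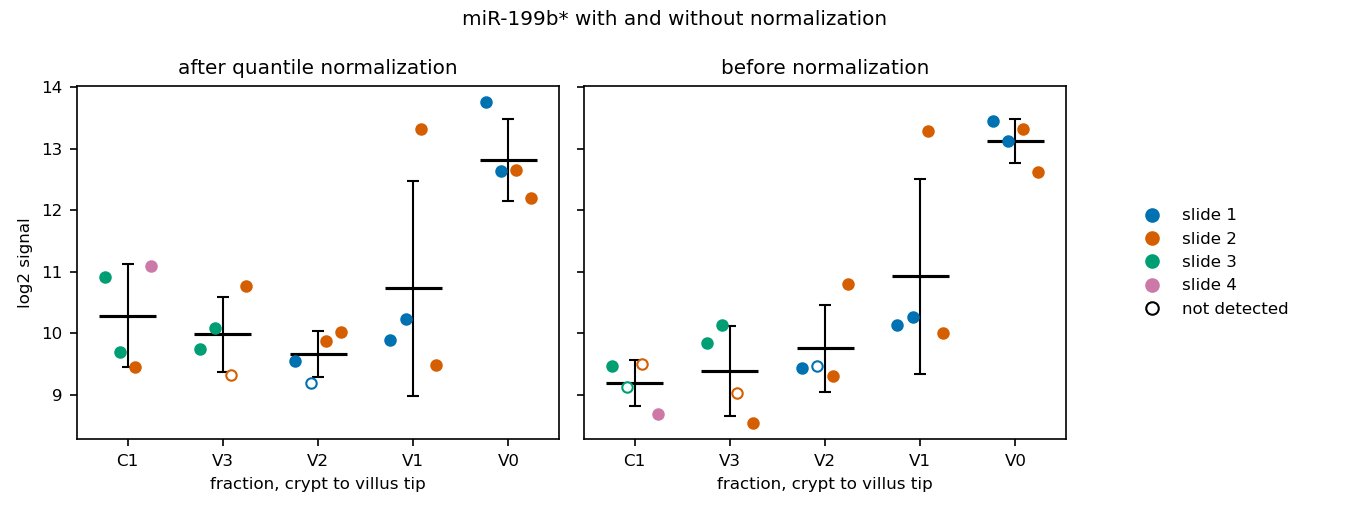
Log2 signal of miR-199b* (y axis) by fraction (x axis), after quantile normalization on the left and before it on the right. Points are arrays coloured by slide, open where not detected, with mean and SD of 4 arrays. The V0 arrays are above the C1, V3 and V2 arrays on both sides, and 1 V1 array, at 13.31 after and 13.29 before normalization, lies with V0.

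The joint probe of miR-199a-3p and miR-199b, the arm with the seed CAGUAGU, had log2 signals of 15.40, 15.38, 14.53 and 14.95 in V0 and of 15.00, 15.24, 13.83 and 15.32 in C1. The V2 arrays were at 13.97, 13.91, 12.93 and 11.97, and the V1 arrays at 14.12, 14.15, 14.15 and 13.19. V3 stood at 13.08, 13.26 and 13.70, with replicate 4 far above at 15.52. Both ends of the axis were therefore high, the V0 arrays did not overlap with those of V2 or V1, and 2 of the V0 arrays lay within the range of C1 and 2 just above it.

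The means of the joint probe fell in the order V0, C1, V1, V3 and V2, at 15.07 ± 0.41, 14.85 ± 0.69, 13.90 ± 0.47, 13.89 ± 1.12 and 13.19 ± 0.95 (log2 signal, SD, n = 4). V0 and C1 differed by 0.22 (SE 0.57, 95% interval -0.97 to 1.40, adjusted p = 0.817), and the neighbours V1 and V3 and V3 and V2 by less than their SDs. V0 was higher than V2 by 1.87 (SE 0.57, unadjusted p = 0.00394, the second smallest of 331, adjusted p = 0.377). V0 exceeded V1 by 1.17 (SE 0.56) and V3 by 1.18 (SE 0.57). Against C1, V2 was lower, with a difference of -1.65 (SE 0.58, adjusted p = 0.178), and the differences of V1 and V3 were -0.95 and -0.96.

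The probe miR-199a-3p:9.1 followed the joint probe. It stood at 15.42, 14.44, 14.15 and 14.26 in V0 and at 15.19, 14.95, 13.44 and 13.57 in C1. Lower levels were measured in V2, with 12.99, 11.72, 13.05 and 11.60, and in V1, with 13.15, 12.66, 13.29 and 11.63. V3 held 10.94, 12.17 and 11.65, and again replicate 4 was high, at 15.24. For this probe V2 and V1 were below V0 and below C1 on all arrays.

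The order of its means was that of the joint probe, with 14.57 ± 0.58 in V0, 14.29 ± 0.91 in C1, 12.68 ± 0.76 in V1, 12.50 ± 1.89 in V3 and 12.34 ± 0.79 in V2 (log2 signal, SD, n = 4). V0 and C1 differed by 0.28 (SE 0.75, 95% interval -1.29 to 1.85). V0 exceeded V2 by 2.23 (SE 0.75, adjusted p = 0.377), V3 by 2.07 (SE 0.75, adjusted p = 0.321) and V1 by 1.89 (SE 0.75, unadjusted p = 0.0212). From C1, the fractions V1, V2 and V3 differed by -1.60, -1.95 and -1.79, with adjusted p-values of 0.195, 0.178 and 0.487.

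The size of the C1 end of this pattern differed between fits. The median number of detected probes grew from 347 in C1 to 447 in V0, so a fit with this number cannot tell detection and fraction apart. With the number of probes detected on an array as a covariate, the difference of V1 from C1 was -0.08 for the joint probe (adjusted p = 0.987) and -0.29 for miR-199a-3p:9.1 (adjusted p = 0.961). The difference of V2 from C1 became -0.99 and -0.94, and that of V3 -0.61 and -1.25. V0 then exceeded C1 by 0.95 for the joint probe (adjusted p = 0.715) and by 1.39 for miR-199a-3p:9.1 (adjusted p = 0.566). In the same fit V0 exceeded V2 by 1.94 and 2.33, each with adjusted p = 0.0476, where 3 of 331 probes were called in all, and V0 exceeded V3 by 2.65 for miR-199a-3p:9.1 (adjusted p = 0.0272).

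Replicate 4 of V3 and replicate 4 of C1 were the arrays with the fewest detected probes of their fractions, 258 and 285. Without these arrays both 3p probes passed the threshold in V0 against V2, with adjusted p = 0.0462 each, where 5 of 331 probes were called in all. miR-199a-3p:9.1 then also exceeded V3 in V0 by 2.98 (adjusted p = 0.0257), and its differences from C1 were -2.19 in V2 (adjusted p = 0.0382, with 12 of 340 probes called) and -2.94 in V3 (adjusted p = 0.0208, with 3 of 364 called). Leaving out V3 replicate 4 alone gave 2.98 for V0 against V3 (adjusted p = 0.0284) and -2.70 for V3 against C1 (adjusted p = 0.0256). Within slide 1, V0 exceeded V2 by 1.45 for the joint probe and by 2.58 for miR-199a-3p:9.1, and within slide 2 by 2.29 and 1.88. Between V0 and C1 both differences were positive within slide 2, at 0.91 and 0.77, and negative with slide as a fixed block, at -0.29 and -0.48. V3 against C1 gave -1.95 and -3.51 within slide 3 and 0.78 and 0.0043 within slide 2.

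miR-199a-5p, the other arm of the miR-199a hairpins, was detected on all arrays and spread widely within fractions. Its C1 arrays stood at 11.82, 11.68, 12.80 and 15.42, and its V0 arrays at 11.58, 12.48, 12.94 and 13.40. V3 ranged from 10.29 to 13.49, V2 from 10.56 to 14.39 and V1 from 10.59 to 11.96. No pair of V0 with another fraction was free of overlap. The means, in the order C1, V0, V2, V1 and V3, were 12.93 ± 1.74, 12.60 ± 0.78, 12.17 ± 1.66, 11.44 ± 0.59 and 11.31 ± 1.49 (log2 signal, SD, n = 4), and neighbours differed by less than the wider SD of each pair.

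The difference of V0 from C1 for miR-199a-5p was -0.33 (SE 0.90, 95% interval -2.21 to 1.55, adjusted p = 0.822). It turned to 0.50 without C1 replicate 4, the array at 15.42, and was 0.37 within slide 2. V0 exceeded V1 by 1.16, V2 by 0.43 and V3 by 1.29, and none of these passed. The interval spans more than a 2-fold difference in either direction, so differences of that size were not detectable with 4 arrays a fraction.

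miR-214, the 3p arm with the seed CAGCAGG, was low on some arrays and high on others of the same fraction. In C1 it stood at 9.87, 9.74 and 9.34, the last not detected, and at 13.34 on replicate 3. In V0 it was 9.79 on replicate 1 and 14.68, 12.47 and 13.05 on the others. V2 was even, at 12.41, 11.78, 11.70 and 12.37. V3 held 12.08, 11.87 and 12.59 with 9.41, not detected, on replicate 4, and V1 held 11.32, 12.63 and 11.36 with 9.52 on replicate 3.

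The mean log2 signal of miR-214 was 12.50 ± 2.03 in V0, 12.07 ± 0.38 in V2, 11.49 ± 1.42 in V3, 11.21 ± 1.28 in V1 and 10.57 ± 1.86 in C1 (SD, n = 4), and neighbours in this order differed by less than the wider SD of each pair, though V0 and V3 differed from V2 by more than the SD of V2. V0 exceeded C1 by 1.93 (SE 1.0, 95% interval -0.17 to 4.03, adjusted p = 0.296), and the exact permutation p was 0.286. Within slide 2 the difference was -0.57, where the high array is the only C1 array. Without that array it was 2.85, and without V0 replicate 2 it was 1.20. The differences of V0 from V1, V2 and V3 were 1.29, 0.43 and 1.01. In C1 and V3 miR-214 was detected on 3 of 4 arrays, so it entered the comparisons of V0 with both through V0 alone. With no detection filter, the limma difference of V0 from C1 had an adjusted p of 0.381.

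Most of the low arrays of miR-214 had few detected miRNAs, but not all arrays with few detected miRNAs were low. The 6 arrays at or below 9.87 had 368, 326 and 285 detected probes in C1, 326 in V0, 258 in V3 and 388 in V1. The last, V1 replicate 3, is the array on which miR-199b* was as high as in V0. With fewer detected probes than that array, V2 replicate 3 (344), C1 replicate 3 (372) and V3 replicate 3 (384) had miR-214 at 11.70, 13.34 and 12.59. Over the 20 arrays, the log2 signal of miR-214 correlated with the number of detected probes with a Pearson r of 0.67 and a Spearman rho of 0.57, and with r = 0.53 without the 2 arrays farthest from the median. The 3p probes went the other way, with r = -0.53 for the joint probe and -0.55 for miR-199a-3p:9.1 (rho -0.48 and -0.59). Without the 2 farthest arrays their r was -0.35 and -0.505. For miR-199b* r was -0.09 and for miR-199a-5p -0.42, the latter -0.08 without the 2 farthest arrays. Before normalization r was higher for every member. It was then 0.79 for miR-214, -0.12 and -0.07 for the 3p probes, 0.37 for miR-199b* and 0.22 for miR-199a-5p. These correlations describe arrays that share fractions and slides. With this number as a covariate, V0 exceeded C1 by 0.49 for miR-214 and by 3.23 for miR-199b* (adjusted p = 0.0146).

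**Figure D3:**
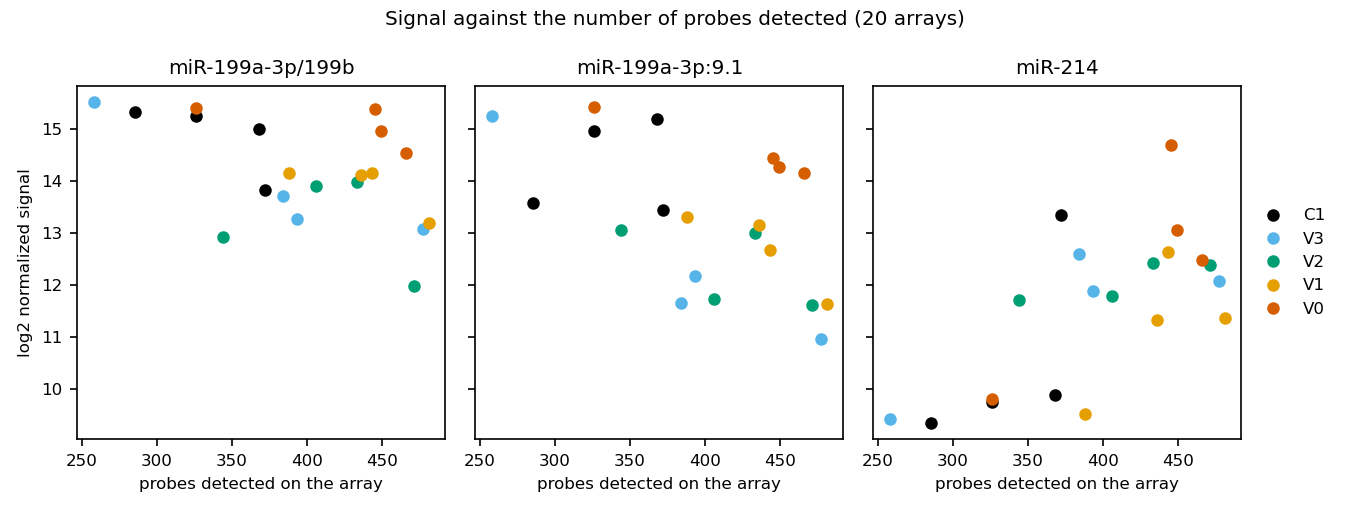
Log2 normalized signal (y axis) of the joint 3p probe, miR-199a-3p:9.1 and miR-214 against the number of probes detected on the array (x axis). Each point is 1 of the 20 arrays, coloured by fraction. miR-214 is low on 6 arrays with at most 388 detected probes, and the 3p probes are highest on arrays with few detected probes and on the V0 arrays.

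The other strand of the miR-214 hairpin, measured by the probe mmu-miR-214* and given above as miR-214-5p, was detected on 3 of 20 arrays. These were V1 replicates 1 and 4, at 9.97 and 9.58, and V0 replicate 2, at 10.17. It was not detected on any array of C1, V3 or V2 and was not tested. V0 replicate 2 is also the array with the highest miR-214 signal, 14.68.

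miR-761, which shares the seed of miR-214 but comes from another hairpin, was detected on all 20 arrays. Its mean log2 signal was 11.43 ± 0.83 in V0, 11.40 ± 0.97 in V1, 12.07 ± 1.61 in V2, 12.75 ± 2.0 in V3 and 13.67 ± 1.88 in C1 (SD, n = 4). C1 thus had the highest mean of miR-761 and the lowest of miR-214.

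In V0 against C1, 0 of the 5 members were called, beside 0.623% of the 321 probes tested, 2 probes. At an unadjusted p under 0.05 in limma stood 1 member, miR-199b*, beside 16.8% of the probes, and 1 member had arrays that did not overlap, beside 7.79%. The median difference of the members was 0.28 and that of all probes -0.04, and 4 of 5 members against 48.3% of all probes were above 0. Of these members, miR-214 entered through V0 alone. A share of 1 in 5 is close to the background of unadjusted p-values.

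The other comparisons of V0 use the same V0 arrays. Against V1, no probe of 356 was called (0%); 2 members had an unadjusted p under 0.05, beside 3.65% of all probes, and 2 did not overlap, beside 3.37%. Against V2, again 0% of 331 probes were called, and 3 members had an unadjusted p under 0.05, beside 5.14%, and 3 did not overlap, beside 6.04%. Both 3p probes were among these 3, and they were the 2 that did not overlap against V1. Both are named for miR-199a-3p and correlated at r = 0.85 over the arrays, so they are not independent of each other. Against V3, 0% of 321 probes were called, 2 members had an unadjusted p under 0.05, beside 7.17%, and 1 did not overlap, beside 6.23%. The 5 members were above 0 in each of these comparisons, beside 55.3%, 52.3% and 45.5% of all probes against V1, V2 and V3. Their medians were 1.29, 1.87 and 1.29, beside medians of all probes of 0.05, 0.02 and -0.08. Through V0 alone entered miR-199b* against V2 and V3, and miR-214 against V3, so these member counts lean to V0 by the filter.

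Against C1, whose arrays are shared by these comparisons, no member was called in V1, V2 or V3, beside 0.578% of 346 probes, 0.645% of 310 and 0.361% of 277. miR-214 was not tested in V3 against C1, since neither fraction detected it on all arrays. In V1 against C1, 1 member had an unadjusted p under 0.05, beside 24.6% of the probes, and 1 did not overlap, beside 22.3%. In V2 the counts were 2 members, beside 20%, and 1, beside 15.5%. In V3 they were 1 of 4, beside 9.39%, and 0, beside 1.81%. The member medians were -0.95, -0.76 and -1.29.

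A linear trend from C1 to V0 was called for 0% of 384 probes. Among the members only miR-199b* had an unadjusted p under 0.05, with a slope of 0.58 log2 units per step (SE 0.18, adjusted p = 0.137), beside 24.2% of the probes, and the slopes of the others were -0.05 for miR-199a-5p, 0.05 and 0.07 for the 3p probes and 0.36 for miR-214. Its fraction means did not climb evenly, since V2 was the lowest. The F test for any difference among the 5 fractions was passed by 0.26% of the probes and by no member, and 3 members, miR-199b* and the 3p probes, had an unadjusted p under 0.05, beside 8.59%.

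**Figure D4:**
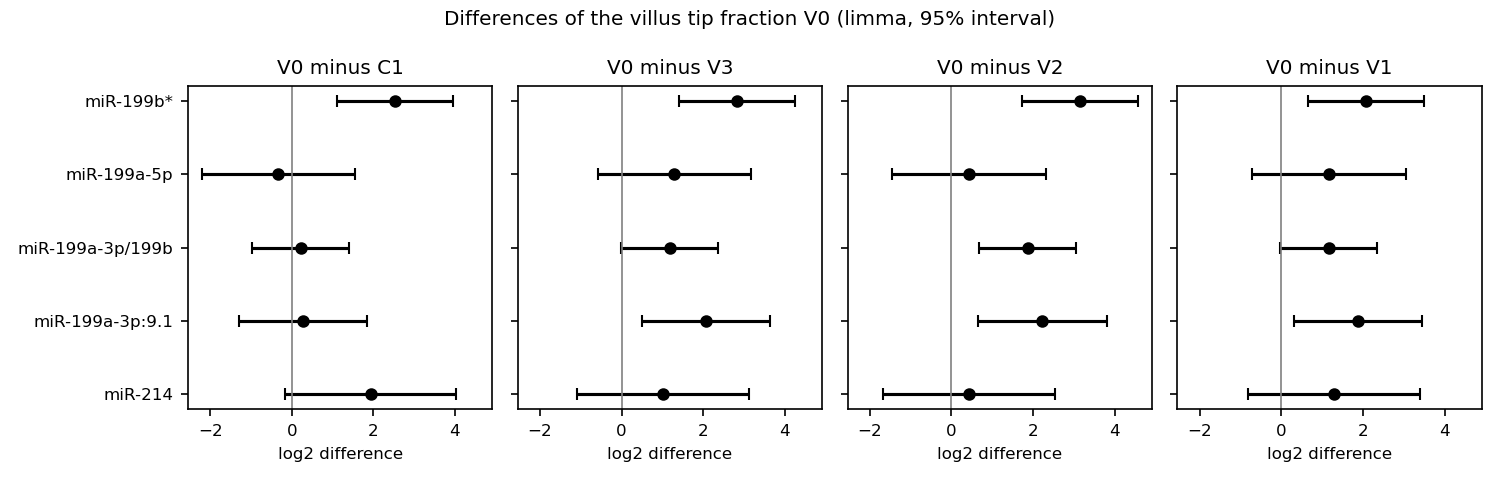
Log2 difference of V0 from C1, V3, V2 and V1 (panels, x axis) for the 5 probes (y axis), as estimated by limma, with 95% intervals over 20 arrays. All intervals of miR-199b* lie above 0, whereas those of miR-199a-5p and miR-214 include 0 in every panel, and no difference passed the adjusted threshold.

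Whether members moved by different amounts between C1 and V0 was tested on the ratio of 2 probes within an array, over the 10 pairs. The ratio of miR-199b* to the joint 3p probe was higher in V0 by 2.31 on the log2 scale, and that to miR-199a-3p:9.1 by 2.24, each with an exact permutation p of 0.0286, the smallest possible, and an adjusted p of 0.143 over the 10 pairs. The ratio to miR-199a-5p was higher by 2.85 (exact permutation p = 0.0571, adjusted p = 0.190). The remaining pairs had adjusted p-values of at least 0.571, and 0 of 10 pairs passed.

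Array by array, the 3p probes moved together, with r = 0.85 over 20 arrays, 0.73 after the fraction means were removed, 0.66 before normalization and 0.40 with both changes. miR-199b* correlated with them at r = 0.54 and 0.60, but only at 0.29 and 0.44 within fractions, and at -0.14 and 0.10 within fractions before normalization. miR-199a-5p and miR-214, whose hairpins share the transcript Dnm3os on chromosome 1, had r = -0.17, and 0.34 before normalization. miR-214 and the 3p probes had r = -0.34 and -0.36, but -0.06 and 0.02 before normalization. The arrays share slides and depth of detection, and these values are descriptions.

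The probes with the pattern most like each member were taken as the 3 highest Pearson correlations over the 20 arrays among 379 other detected probes. For miR-199b* these were miR-669f (r = 0.70), miR-133a (0.55) and miR-24-2* (0.53), of which only miR-669f kept a clear value within fractions, 0.58. The joint probe was most like miR-379 (0.85), miR-221 (0.74) and miR-326 (0.72), and miR-199a-3p:9.1 most like miR-133a* (0.76), miR-379 (0.74) and miR-299 (0.73). miR-199a-5p was most like miR-129-5p (0.73), miR-295* (0.70) and miR-466f (0.70), and miR-214 most like miR-218 (0.75), miR-30a (0.74) and miR-421 (0.71). Both 3p probes thus had miR-379, a miRNA of the imprinted Dlk1-Dio3 cluster, among their nearest, though before normalization its r with them was 0.40 and 0.35. No other probe was named for more than 1 member.

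Because the study describes the fractions as epithelium and the members are known from stroma, markers of both were read on the same arrays. The epithelial miRNAs miR-192, miR-194 and miR-200b were detected on all 4 arrays of every fraction. The smooth muscle miRNA miR-145 was also detected on all 20 arrays, with means of 15.24 in C1 and 15.65 in V0, and miR-143 averaged 12.90 in C1, detected on 3 of 4 arrays, and 15.34 in V0. V0 exceeded C1 by 2.45 for miR-143 (SE 0.97, adjusted p = 0.237) and by 0.41 for miR-145. The mean level of the 7 probes for other stroma and smooth muscle ranged from 11.53 to 12.58 on the V0 arrays, from 10.70 to 12.14 in C1 and from 9.69 to 11.90 in the other fractions. No probe of this list was called in V0 against C1, and 2 of the 3 tested were above 0, with a median of 0.41.

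Most tested probes of other cell types were above 0 in V0 as well, with no probe called. A probe was tested when detected on all 4 arrays of V0 or of C1, and some entered through V0 alone. In C1, miR-150, miR-155, miR-486 and miR-133a* were detected on 3 of 4 arrays and miR-133b on 2. Of the epithelial list, miR-200a, miR-200b*, miR-141 and miR-429 were detected on 3 of 4 C1 arrays and miR-200a* on 1. The counts of tested probes thus lean to V0 by the filter, and probes not tested lay on both sides of 0. Of 2 endothelial probes, of miR-126, both were above 0 (median 1.0), as were 4 of 4 leukocyte probes tested (median 1.26), among them miR-142-3p at 1.24 and miR-223 at 1.29, 2 of 3 red cell probes (median 1.89), and 3 of 3 for striated muscle (median 1.22). miR-486 and miR-451, of red cells, differed by 3.05 (adjusted p = 0.083) and 1.89, but miR-144:9.1 of the same list by -0.91. Of striated muscle, miR-133a differed by 2.52 (adjusted p = 0.150), miR-133b by 1.22 and miR-133a* by 0.04. miR-1, a defining marker of striated muscle, was detected on no V0 array and differed by -1.08, not tested. The neuronal miR-124 was detected on 2 V0 arrays and 1 V2 array, and no neuronal probe could be tested. The epithelial list had 9 of 11 tested probes above 0 (median 0.90), and its mean level ranged from 13.40 to 13.76 on the V0 arrays and from 11.74 to 13.64 in C1. The part of these cell types in the differences of miR-199 and miR-214 was not tested.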

How the data were processed

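miRNA levels of ileal epithelial fractions were measured on 20 Illumina Universal MicroRNA bead arrays, 4 for each of C1, V3, V2, V1 and V0. The deposited tables hold an average signal intensity for 655 probes, which the authors obtained with Genome Studio and quantile normalized over all arrays without subtracting background, and the same intensity before normalization. Beside each intensity, the deposited tables give a detection p-value. The values of the series matrix and of the normalized table are the same, with a largest difference of 0. No probe sequence or genome build was used from the files.

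On the log2 scale, limma 3.58.1 (R 4.3.3; lmFit and eBayes) estimated 1 mean per fraction from all arrays together. Tested were probes that all 4 arrays of 1 of the compared fractions detected (p of at most 0.01), or, in the trend over steps 0 to 4 and the F test, those of any fraction, and p-values were adjusted over all probes tested by Benjamini-Hochberg. Calls required an adjusted p no higher than 0.05 and a 2-fold difference. The scripts were tested on simulated data. The study's paired test was not run, since the labels do not pair the arrays.

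All member probes were named with their values, besides the other strand of miR-214, the 3 probes most correlated with each member, and markers of 7 cell type lists. miR-761 was named for its seed. The rule for the members uses no measured value, but the rule and the lists were chosen with earlier results of these data known. Alternatives covered normalization (none, median centring, neqc with an offset of 16), the detection filter, the fold threshold, the eBayes prior, slide as a fixed or random block and within slides, detected probes as a covariate, an exact rank-sum test, the fractions in the fit, the arrays with the fewest detected probes, and each array left out. The number of arrays limits the precision. Sequences and positions came from RefSeq for GRCm38.p6.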

Additional observations from a re-analysis of the deposited data

Results flagged for a closer look

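Among 25 sets of 4 arrays, a member in a fraction each, 2 held an array far from the other 3, and chance gives about 5% of such sets. The joint probe of miR-199a-3p and miR-199b had a log2 normalized signal of 13.19 on V1 replicate 4, with the other V1 arrays between 14.12 and 14.15, so that the gap made up 0.965 of the range. miR-214 was at 13.34 on C1 replicate 3, while the other C1 arrays lay between 9.34 and 9.87, a gap of 0.866 of the range. V1 replicate 4 had 481 detected probes, the most of all arrays, and C1 replicate 3 had 372, the most of C1.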

How the results depend on the processing

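Over the 9 comparisons, the number of members called was 0 as reported. In V0 against C1 it became 1 without normalization, with median-centred arrays and with detected probes as a covariate. Over all probes, 12, 4 and 4 of 321 were called there. In V0 against V2 it became 1 without normalization, with centring, with slide as a random block and with only the 2 fractions fitted. In each of these settings 1 of 331 probes was called in all. The member count became 3 without replicate 4 of V3 and of C1 (few detected probes) or with the covariate, beside 5 and 3 of 331 probes. In V0 against V3 it became 1 without normalization or without those arrays, and 2 with the covariate. Over all probes, 1 of 321, 1 of 357 and 2 of 321 were called there. In V2 against C1 and V3 against C1 it became 1 without those arrays, beside 12 of 340 and 3 of 364 probes. In V3 against C1 it became 3 within slide 3, with 2 arrays a fraction, where 102 of 430 probes were called in all. The trend gave 1 without normalization, and the F test 1 without normalization, without those arrays and with the covariate. Calls over all probes under the alternatives are not given for the trend and the F test. Their member counts, also those with an array left out, therefore have no share to be read against. Leaving out each array in turn gave 0 to 1 called members in V0 against C1, V1, V2 and V3, in V3 against C1 and in the F test. The 1 arose without V1 replicate 3 (V0 against each fraction and the F test) or without V3 replicate 4 (V0 against V3, V3 against C1 and the F test). Without V1 replicate 3, 5 of 321, 1 of 396, 1 of 331 and 1 of 321 probes were called in V0 against C1, V1, V2 and V3. Without V3 replicate 4, V0 against V3 had 1 of 357 called and V3 against C1 10 of 342. The exact permutation test of V0 against C1 reached p of at most 0.05 for 1 member, and for 2 before normalization.

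The V0 minus C1 difference of miR-199b* passed at 3.94 without normalization, 2.89 with centring and 3.23 with the covariate (adjusted p = 0.00195, 0.0316 and 0.0146), and ranged from 2.21 to 2.79 with each array left out. Its adjusted p lay between 0.00195 and 0.647 over the alternatives. The sign of the small V0 minus C1 differences was not settled. For miR-199a-5p it became 0.49 without normalization, 0.18 with slide as a fixed block, 0.37 within slide 2, 0.50 without those arrays and 0.47 with the covariate, and -0.75 to 0.50 with each array left out. For the joint 3p probe it became -0.36 with centring and -0.29 with the slide block but 0.95 with the covariate, and -0.12 to 0.40 with each array left out. For miR-199a-3p:9.1 it became -0.48 with the slide block, 1.45 without normalization and 1.39 with the covariate, and -0.0025 to 0.58 with each array left out. For miR-214 it became -0.57 within slide 2. Within slide 2 the V3 minus C1 differences of the 3p probes became 0.78 and 0.0043. With each array left out, V0 minus V2 ranged from -0.10 to 1.18 for miR-199a-5p and from -0.29 to 1.34 for miR-214. The causes were not tested. C1 replicate 4, alone on slide 4, has no weight in the fixed block.

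No paired analysis was possible because no label links arrays to a mouse. Without normalization the median V0 minus C1 difference of all probes tested was 0.95, so differences there are relative to that shift. In all, 1168 values and counts under alternatives kept their direction and side of the threshold, 55 passed a threshold they had missed and 18 turned direction. Stricter detection filters left 6 differences of miR-199b* and miR-214 untested.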
